A study of Mus musculus with 20 samples.

Results

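The genes described here are the 7 that store, carry or release iron in a macrophage: Fth1 and Ftl1, the heavy and light chains of ferritin; Tfrc, the transferrin receptor; Slc40a1, the iron exporter ferroportin; Slc11a1 and Slc11a2, the endosomal metal transporters NRAMP1 and DMT1; and Hmox1, heme oxygenase 1. They were taken by symbol from the 24421 genes of the count tables, and all 7 passed the filter on low counts that left 12132 genes for testing. Expression was measured by RNA sequencing in cultured mouse bone marrow-derived macrophages, labelled BMDM, grown in DMEM with fetal serum and with conditioned medium of the L929 line, a fibroblast line that secretes the macrophage growth factor CSF-1. Cells from 5 mice were each exposed for 48 h to 4 formulations, which gives 20 libraries. The conditions are LP alone, LP with PIC, LP with 3M, and LP with both, labelled LP 3M PIC. LP is read here as the lipoparticle named in the series title, and every condition carries it, so no group is without particles. LP PIC and LP 3M add 1 adjuvant each to the particle, and the dual formulation, LP 3M PIC, adds both. What PIC and 3M stand for, their amounts, and the mouse strain, sex and age were not stated in the sources used here. The same 5 mouse identifiers recur in all 4 conditions, so the libraries are paired by mouse, and the labels number the mice in the same way throughout. The main test did not use this pairing. A fit with a term for each mouse, called the mouse as a block, was run as an alternative, and its values are given where they changed a member's call.

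Iron enters most cells bound to transferrin, is released in endosomes and is moved into the cytosol by DMT1. In macrophages a second stream comes from engulfed red cells, whose heme is opened by heme oxygenase to free iron, biliverdin and carbon monoxide. What is not used is stored in ferritin shells of heavy and light chains or leaves through ferroportin, and NRAMP1 draws metal out of phagosomes that hold microbes. The iron regulatory proteins, encoded by Aco1 and Ireb2, tie these steps together: when iron is short they bind hairpins called iron-responsive elements, which blocks translation from messages that carry one in the 5′ UTR and protects the transferrin receptor message, which carries several in the 3′ UTR.

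These hairpins were looked for in the members' transcripts because they divide the 7 genes by the kind of control each message can be under. Control of translation does not show in messenger RNA counts. The search took the letters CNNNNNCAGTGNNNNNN on the transcript strand, in which the 5 bases before CAGTGN pair with the 5 after it, G with T allowed, in GENCODE M21 transcripts on GRCm38. The 6 loop bases are in capitals, sequences run 5′ to 3′, and T stands for U. The elements found in 5′ UTRs were these 3, and the next 5 lie in 3′ UTRs.
Fth1: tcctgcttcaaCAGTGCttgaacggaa
Ftl1: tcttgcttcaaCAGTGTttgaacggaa
Slc40a1: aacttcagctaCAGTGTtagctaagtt
Tfrc, the first: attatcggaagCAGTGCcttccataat
Tfrc, the second: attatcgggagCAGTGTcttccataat
Tfrc, the third: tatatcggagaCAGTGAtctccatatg
Tfrc, the fourth: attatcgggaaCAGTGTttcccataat
Slc11a2: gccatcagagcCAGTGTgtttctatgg

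The Fth1 element is at chr19:9982733-9982759 on the plus strand, that of Ftl1 at chr7:45459780-45459806 on the minus strand, and that of Slc40a1 at chr1:45925466-45925492 on the minus strand. The Tfrc elements follow each other on the plus strand at chr16:32631220-32631246, chr16:32631599-32631625, chr16:32631664-32631690 and chr16:32631711-32631737, and the Slc11a2 element is at chr15:100395154-100395180 on the minus strand. All paired at 5 of 5 stem positions except that of Slc11a2, which paired at 4. A match with 5 pairs occurred in the 5′ UTR of 31 of 20555 genes (0.151%) and in the 3′ UTR of 129 of 20974 (0.615%), and one with at least 4 pairs in 0.997% and 4.16%. No match was found in the UTRs of Slc11a1 or Hmox1, which says only that these letters are not there.

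The members answered the formulations in different ways. Slc11a1 and Slc11a2 rose under each of the 3 adjuvant formulations, Hmox1 and Fth1 rose under both that hold 3M, Slc40a1 fell under both that hold 3M, Tfrc fell under LP PIC, and Ftl1 fell under the dual formulation only among the tests against LP. With the mouse as a block, Slc40a1 also fell under LP PIC (-0.91, adjusted p = 0.0114). A gene is said to rise or fall where its adjusted p was under 0.05 (edgeR's quasi-likelihood test over all 20 libraries, Benjamini-Hochberg over all genes tested). Against LP, 3 of 7 members passed with LP PIC, where 45.5% of all tested genes did, 5 of 7 with LP 3M against a background of 39.5%, and 6 of 7 with the dual formulation against 62.2%. Split by direction, the background was 22.7% higher and 22.7% lower with LP PIC, 20.0% and 19.5% with LP 3M, and 31.7% and 30.6% with the dual formulation. With so many genes changed in every comparison, those counts do not set the members apart, and the results lie in the size and direction of each gene. The median size of the members' changes, without regard to sign, was 0.46, 1.18 and 1.00 on the log2 scale in that order, beside 0.28, 0.26 and 0.42 over all tested genes. The members were chosen with earlier results of these data known, so these medians are a description and do not set the members apart either. The 3 comparisons share the LP libraries and are not independent of each other.

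**Figure D1:**
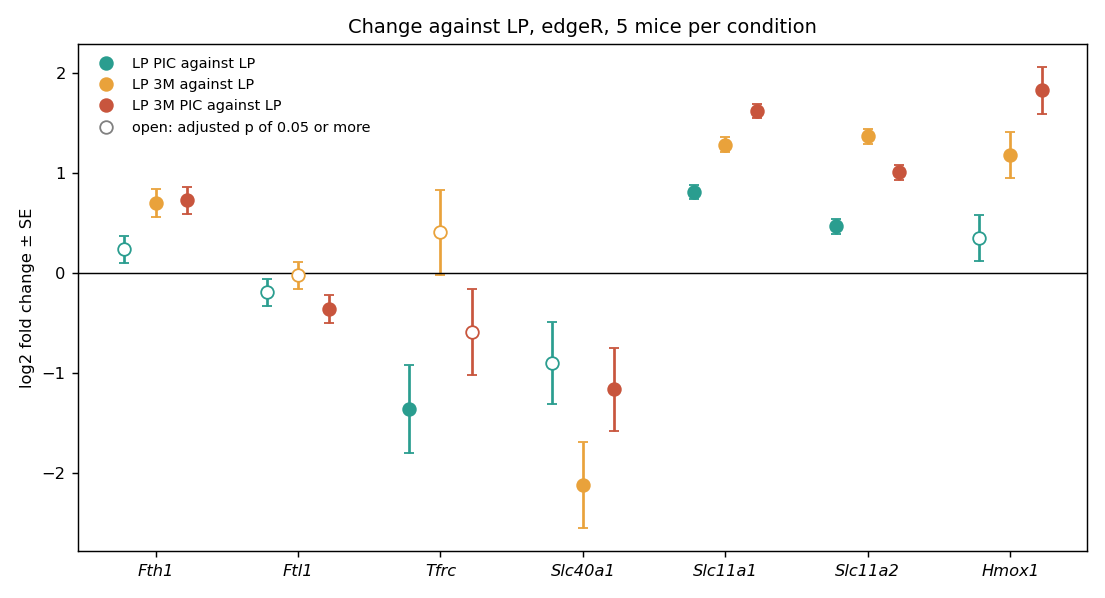
Change of each of the 7 genes against LP as log2 fold change with its standard error, from edgeR with 5 mice per condition, for each adjuvant formulation. Filled points have an adjusted p under 0.05; Fth1, Slc11a1, Slc11a2 and Hmox1 lie above 0 and Ftl1 and Slc40a1 below it in all 3.

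Libraries held 9740528 to 23874805 gene counts (median 22751911), and the 2 shallowest were LP of mouse 2 and LP 3M PIC of mouse 3. The lowest count of any member in any library was 145, for Slc40a1, far above the limit that a count of 0 allows, 0.126 to 0.308 CPM (counts scaled to the same total in every library). All 8 listed macrophage markers were present, with a mean summed level of 15767 CPM in LP, 16219 with PIC, 23702 with 3M and 14289 in the dual formulation. Most of that sum was Lyz2 (9708, 9445, 13672 and 6466 CPM), and single markers went different ways, with Adgre1 at 697 CPM in LP and 4004 with 3M, Cd68 at 2480 and 1894, and Mertk at 54.0 and 27.8. Their part in the results was not tested. The 8 erythroid markers, the type richest in Tfrc and heme genes, summed to at most 0.41 CPM, with the globin genes and Alas2 at 0 in every library. In such bulk samples, fewer cells of a type and less RNA per cell cannot be told apart.

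Levels are given as CPM of the library total, in the order of mice 1 to 5. Ferritin was among the most abundant messages of these cells, and both chains together took 3.73% ± 0.157 (SD, n = 5) of gene counts in LP. Per kilobase of transcript, the other members followed in LP in the order Hmox1 at 574 ± 193, Slc11a1 at 143 ± 12.2, Slc11a2 at 33.9 ± 2.17, Slc40a1 at 21.1 ± 6.02 and Tfrc at 18.5 ± 12.3 CPM per kb (SD, n = 5). The last pair did not differ beyond their spread, and the 2 ferritin chains are not ranked against each other, because most of the Ftl1 message is shared with other loci.

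Fth1, on chromosome 19, encodes the ferritin chain with the ferroxidase activity that loads iron. In LP its level was 17874, 17967, 19666, 18376 and 17397 CPM, and in LP PIC 21386, 20778, 17948, 24712 and 19279. With 3M it was 33466, 31587, 22574, 24627 and 24778 CPM, and in the dual formulation 29946, 32362, 25811, 28180.1 and 22846. Every library with 3M lay above every LP library, with mice 1 and 2 the highest under both 3M formulations, while LP and LP PIC overlapped. Fth1 rose with LP 3M by 0.70 ± 0.14 (log2, SE; 1.62-fold, adjusted p = 0.000495) and with LP 3M PIC by 0.72 ± 0.14 (1.65-fold, adjusted p = 0.000128), higher in 5 of 5 mice each time. With LP PIC the difference was 0.23 ± 0.14 (adjusted p = 0.173). By count, Fth1 ranked between 4 and 5 among all genes in LP libraries, and had rank 1 in every dual library and in 4 of 5 LP 3M libraries.

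Ftl1, on chromosome 7, encodes the light chain, which supports the mineral core and has no ferroxidase site. Its level was 18916, 21319, 18941, 17632 and 18396 CPM in LP and 13229, 13835, 17659, 16098 and 19671 in LP PIC. In LP 3M it was 16577, 16978, 17573, 16405 and 19099.9 CPM, and in the dual formulation 10465, 10777, 16736, 13001 and 17547. The dual libraries all lay below the LP libraries, those of mice 1 and 2 farthest, and the other conditions overlapped LP. Ftl1 fell with LP 3M PIC by 0.37 ± 0.14 on the log2 scale (adjusted p = 0.0272, lower in 5 of 5 mice), a call lost without mouse 1 (adjusted p = 0.120), mouse 2 (0.152), mouse 4 (0.0766) or the LP library of mouse 2 (0.0600), and when only LP and LP 3M PIC were fitted (0.0619). Over the 16 alternatives to the test its adjusted p ran from 0.00675 to 0.152. The differences were -0.20 ± 0.14 with LP PIC (adjusted p = 0.259) and -0.03 ± 0.14 with LP 3M (adjusted p = 0.894). Of the stretches of 50 bases in the Ftl1 transcript, 78.9% also occur in transcripts of 15 other annotated genes, against 4.01% and 1 gene for Fth1. Those with the most matches to Ftl1 were Ftl1-ps1, Gm15590, Ftl2-ps and Ftl1-ps2. The ferritin-like gene Fthl17 was at 0 in all 20 libraries. Of 5 other genes and pseudogenes annotated in GENCODE M21 under Fth or Ftl symbols, 0 had a row in the counts. Ferritin pseudogenes under other symbols were not looked for in the counts. The entry for reads with several alignments was 0 in every library, so how reads shared with such loci were treated is not seen, and Ftl1 levels are uncertain.

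The ratio of Fth1 to Ftl1 counts within a library was above that in LP in every mouse under both formulations that hold 3M. With LP PIC it was 1.02 in mouse 3, against 1.04 in LP, and 0.980 in mouse 5, against 0.946. For each Ftl1 count there were 0.963 ± 0.0822 Fth1 counts in LP, 1.33 ± 0.306 with PIC, 1.59 ± 0.333 with 3M and 2.18 ± 0.762 with both (SD, n = 5). In the dual libraries the ratio was 2.86, 3.00, 1.54, 2.17 and 1.30, so it was highest in mice 1 and 2, while in LP the 5 mice were close together. The share of both chains in all gene counts was 3.69% ± 0.281 with PIC, 4.47% ± 0.443 with 3M and 4.15% ± 0.125 with both. These ratios are descriptions with no test, and they inherit the uncertainty of Ftl1.

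**Figure D2:**
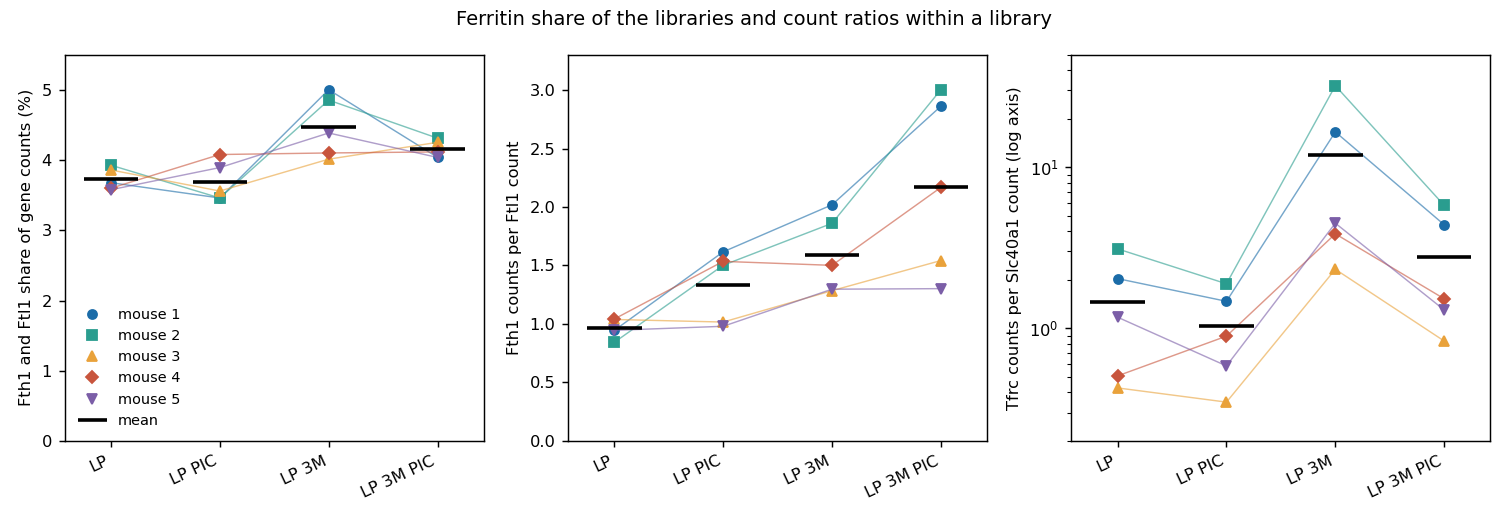
Share of Fth1 and Ftl1 in gene counts (percent), Fth1 counts per Ftl1 count, and Tfrc counts per Slc40a1 count (log axis) by condition, with 1 symbol per mouse, lines joining a mouse's libraries and bars for the mean. The mean ratio of the ferritin chains goes from 0.963 in LP to 2.18 in LP 3M PIC, and the median ratio of Tfrc to Slc40a1 is highest in LP 3M, at 4.49, where the mean of 11.9 is 6.81 without mouse 2.

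**Figure D3:**
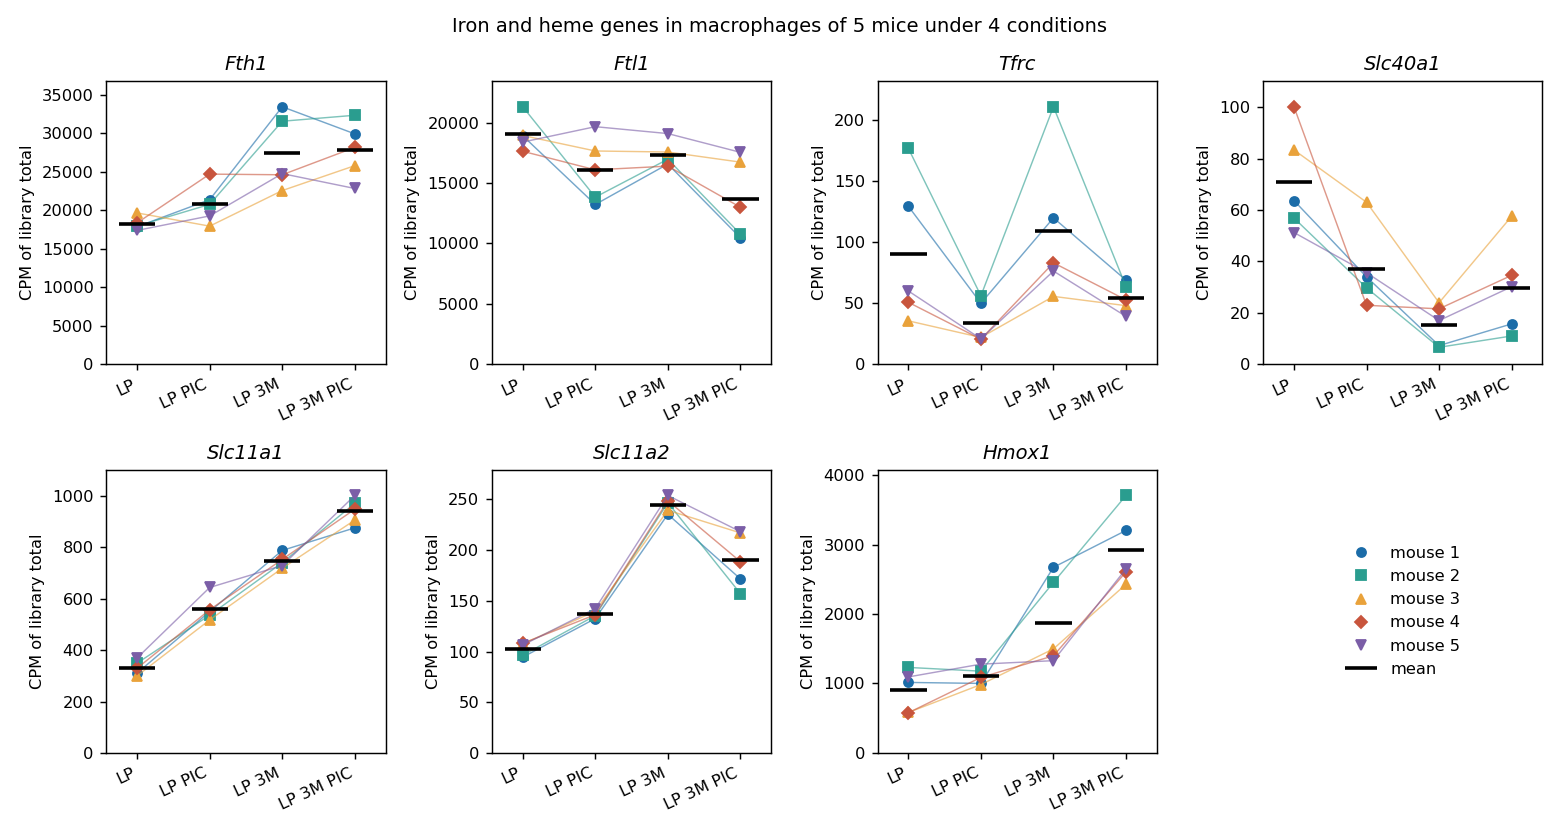
Level of the 7 genes in CPM of the library total, with 1 symbol per mouse, lines joining a mouse's 4 libraries and bars for the mean of 5 mice. Slc11a1 and Slc11a2 form separate bands by condition, while Tfrc and Slc40a1 spread widely between mice.

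Tfrc, on chromosome 16, encodes the receptor that takes up transferrin-bound iron. Its level was 129.5, 177, 35.6, 50.8 and 60.1 CPM in LP and 49.97, 56.1, 21.9, 20.5 and 20.8 in LP PIC. In LP 3M it was 120.0, 211, 55.6, 83.1 and 76.4 CPM, and in the dual formulation 68.9, 63.7, 48.0, 52.7 and 39.2. Mice 1 and 2 were the 2 highest in all 4 conditions, and each condition overlapped LP. Tfrc fell with LP PIC by 1.36 ± 0.44 on the log2 scale (adjusted p = 0.0164, lower in 5 of 5 mice), and with the mouse as a block the adjusted p was 6.19e-05. Without the LP library of mouse 2, which was the highest for Tfrc in LP, the difference was -0.99 with adjusted p = 0.0668, in a range over 16 alternatives from 6.19e-05 to 0.0668. The differences from LP were 0.40 ± 0.43 with LP 3M (adjusted p = 0.478) and -0.59 ± 0.43 with LP 3M PIC (adjusted p = 0.239). Between formulations, Tfrc was higher in LP 3M than in LP PIC by 1.77 ± 0.44 (adjusted p = 0.00315, 5 of 5 mice).

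Dividing cells carry more transferrin receptor, so 8 proliferation genes were counted beside it. All 8 fell with LP PIC (median -2.53 on the log2 scale), 7 of 8 fell with LP 3M (median -0.61) and all 8 fell with LP 3M PIC (median -1.996). Over all tested genes, 22.7%, 19.5% and 30.6% fell in the same order. Their part in the Tfrc values was not tested.

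Slc40a1, on chromosome 1, encodes ferroportin, the only known exporter of iron from cells. Its level was 63.7, 56.9, 83.4, 100.2 and 51.2 CPM in LP and 34.0, 29.7, 63.0, 22.9 and 35.6 in LP PIC. In LP 3M it was 7.25, 6.59, 23.9, 21.5 and 17.0 CPM, and in the dual formulation 15.7, 10.99, 57.6, 34.6 and 30.2. All LP 3M libraries lay below all LP libraries, with mice 1 and 2 lowest in both 3M formulations. The dual libraries overlapped both, with mouse 3 reaching into the LP range, and were higher than LP 3M in every mouse. Slc40a1 fell with LP 3M by 2.12 ± 0.43 on the log2 scale (adjusted p = 0.000749) and with LP 3M PIC by 1.17 ± 0.42 (adjusted p = 0.0204), lower in 5 of 5 mice in each case. The dual call was lost without mouse 1 (adjusted p = 0.0599) or mouse 4 (0.0738) and was 0.000649 with the mouse as a block, the highest and lowest of 16 alternatives being 0.0738 and 0.000649. With LP PIC the difference was -0.90 ± 0.41 (adjusted p = 0.0812, lower in 5 of 5 mice), and with the mouse as a block it passed, at -0.91 with adjusted p = 0.0114, the lowest of 16 alternatives, of which the highest was 0.351. Counts of the importer per count of the exporter had a median of 1.17 in LP, 0.894 with PIC, 4.49 with 3M and 1.52 with both. The LP 3M values ran from 2.32 to 32.1 and were highest in mice 1 and 2, and their mean of 11.9 was 6.81 without mouse 2.

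Slc11a1, on chromosome 1, encodes the phagosomal transporter NRAMP1, known for resistance to intracellular bacteria. Its level was 311, 349, 300.1, 329.8 and 369.6 CPM in LP and 549.9, 536, 517, 557 and 644 in LP PIC. In LP 3M it was 788, 740.2, 718, 753 and 729 CPM, and in the dual formulation 876, 971, 906, 948 and 1002. No 2 conditions overlapped, and the order from LP through LP PIC and LP 3M to the dual formulation held in every mouse. Slc11a1 rose by 0.80 ± 0.07 with LP PIC (adjusted p = 3.53e-08), by 1.28 ± 0.07 with LP 3M (adjusted p = 2.28e-10) and by 1.62 ± 0.07 with LP 3M PIC (adjusted p = 3.58e-12), on the log2 scale.

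Slc11a2, on chromosome 15, encodes DMT1, which passes iron from the transferrin endosome to the cytosol. Its level was 94.5, 96.4, 108, 108 and 106 CPM in LP and 133, 135, 139.8, 136 and 142 in LP PIC. In LP 3M it was 235, 247, 239, 249 and 254 CPM, and in the dual formulation 172, 157, 217, 189 and 218. Again no 2 conditions overlapped, but here LP 3M was the highest, and adding PIC to it went with a lower level. Slc11a2 rose by 0.46 ± 0.08 with LP PIC (adjusted p = 5.91e-05), by 1.36 ± 0.08 with LP 3M (adjusted p = 2.28e-10) and by 1.00 ± 0.08 with LP 3M PIC (adjusted p = 2.09e-09), on the log2 scale. The 2 NRAMP genes thus differ in which formulation gave the highest level. Slc11a2 overlaps Gm5475 on the opposite strand, and the strand setting of the counting is not given in the sources used here.

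Hmox1, on chromosome 8, encodes the inducible enzyme that opens the heme ring. Its level was 1015, 1231, 583, 579 and 1094 CPM in LP and 1001, 1177, 985, 1087 and 1279 in LP PIC. In LP 3M it was 2673, 2456, 1499, 1399 and 1329 CPM, and in the dual formulation 3204, 3708, 2429, 2608 and 2651. Both 3M formulations lay wholly above LP, with mice 1 and 2 highest in each, and LP PIC overlapped LP. Hmox1 rose with LP 3M by 1.18 ± 0.23 on the log2 scale (adjusted p = 0.000514) and with LP 3M PIC by 1.82 ± 0.23 (adjusted p = 1.81e-06), higher in 5 of 5 mice. With LP PIC the difference was 0.35 ± 0.23 (adjusted p = 0.227).

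The formulations were also compared with each other. Between the dual formulation and LP PIC, which differ by 3M, 4 of 7 members passed and all 4 were higher in the dual, where 44.5% of tested genes passed, 23.1% higher and 21.4% lower. Hmox1 rose by 1.47 ± 0.23, Slc11a1 by 0.81 ± 0.07, Slc11a2 by 0.54 ± 0.08 and Fth1 by 0.49 ± 0.14, all on the log2 scale (adjusted p = 6.39e-05, 1.66e-07, 1.97e-05 and 0.00654). Fth1 lost the call without mouse 2 (adjusted p = 0.0504, in a range from 0.000617 to 0.0504 over 16 alternatives). For Tfrc the difference was 0.77 ± 0.43 (adjusted p = 0.159), and with the mouse as a block it passed, at 0.90 with adjusted p = 0.00141 (alternatives from 0.00141 to 0.346).

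Between the dual formulation and LP 3M, which differ by PIC, 3 of 7 members passed, where 41.5% of tested genes did (20.5% higher and 21.0% lower), and 6 of 7 passed with the mouse as a block, a fit in which 47.9% of tested genes did. Slc11a1 rose by 0.34 ± 0.07 (adjusted p = 0.000887) and Slc11a2 fell by 0.36 ± 0.07 on the log2 scale (adjusted p = 0.000833), each in 5 of 5 mice. Hmox1 rose by 0.64 ± 0.23 (adjusted p = 0.0301, 5 of 5 mice), a call lost without mouse 3 (0.0579), mouse 4 (0.0728), mouse 5 (0.0848) or the LP 3M library of mouse 5 (0.0808), and when only these 2 conditions were fitted (0.0502), in a range from 0.0041 to 0.0848. The block added Tfrc at -0.85 (adjusted p = 0.00214, against 0.0711 without it), Slc40a1 at 0.92 (adjusted p = 0.0147, against 0.0775) and Ftl1 at -0.36 (adjusted p = 0.0177, against 0.0560). The alternatives reached up to 0.172, 0.276 and 0.197 for these 3 genes, and the blocked value was the lowest for each. Fth1 differed by 0.03 ± 0.14 (adjusted p = 0.897).

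Between the single adjuvants, 6 of 7 members passed, where 47.1% of tested genes did (24.4% higher and 22.7% lower). In LP 3M, Slc11a2 was higher than in LP PIC by 0.90 ± 0.08, Hmox1 by 0.83 ± 0.23, Slc11a1 by 0.48 ± 0.07 and Fth1 by 0.46 ± 0.14, and Slc40a1 was lower, at -1.22 ± 0.42 (adjusted p = 1.01e-07, 0.00604, 2.47e-05, 0.00879 and 0.0238). Without mouse 1 the calls of Hmox1 (0.0625), Fth1 (0.0669) and Slc40a1 (0.0753) were lost, without mouse 2 that of Fth1 (0.0541) and without mouse 5 that of Slc40a1 (0.0639). The lowest adjusted p over the 16 alternatives was 0.000946 for Hmox1, 0.00128 for Fth1 and 0.00125 for Slc40a1. The Tfrc call is given above, and Ftl1 differed by 0.17 ± 0.14 (adjusted p = 0.326).

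Whether the dual formulation gave more or less than both adjuvants added up was tested as an interaction, which is 0 where the log2 changes of the single formulations sum to that of the dual one. It takes the amount of each adjuvant to be the same in the single and dual formulations, which is not given in the sources used here. The test passed for 2 of 7 members, both with a negative value, where 8.43% of tested genes passed (3.82% positive and 4.62% negative). For Slc11a2 the interaction was -0.82 ± 0.11 (adjusted p = 0.000105), called under each of 15 alternatives, and for Slc11a1 it was -0.47 ± 0.10 (adjusted p = 0.00758), a call lost without mouse 1 (0.104) or mouse 4 (0.0714), in a range from 8.27e-05 to 0.104. Both rose with each adjuvant, and their log2 change with both was smaller than the sum of the single log2 changes. A sum of log2 changes is a product of folds, so the test does not say whether the rises in CPM add up. For Slc40a1 the interaction was 1.86 ± 0.59 (adjusted p = 0.0580), and with the mouse as a block it passed, at 1.83 with adjusted p = 0.00735 (alternatives from 0.00735 to 0.232). The positive sign is that of a smaller decrease than the sum. The other values were -0.21 ± 0.19 for Fth1, -0.14 ± 0.20 for Ftl1, 0.36 ± 0.61 for Tfrc and 0.29 ± 0.32 for Hmox1 (adjusted p = 0.555, 0.712, 0.764 and 0.630).

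**Figure D4:**
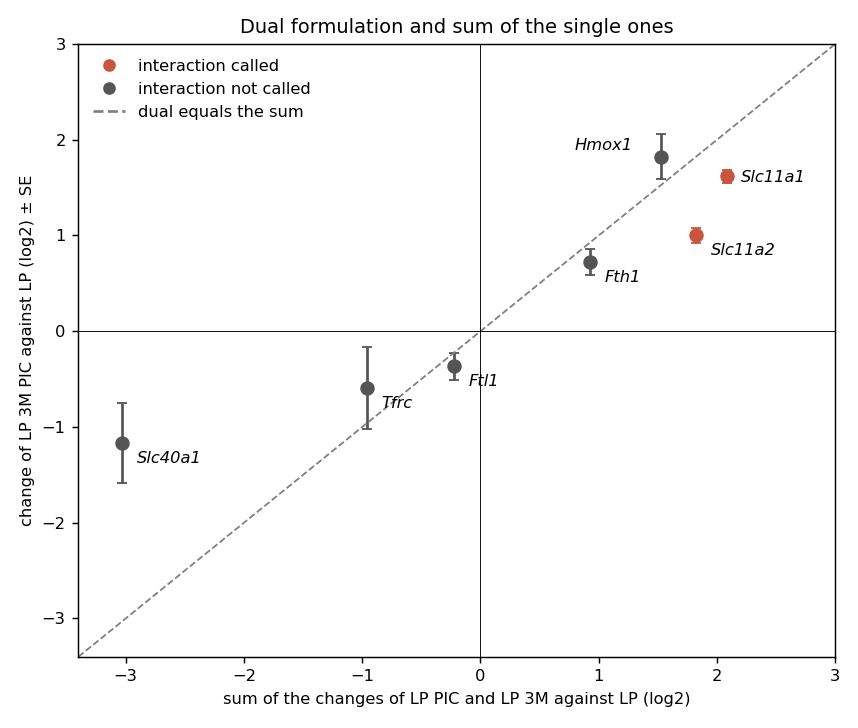
Change of LP 3M PIC against LP (log2, with its standard error) over the sum of the changes of LP PIC and LP 3M against LP (log2) for the 7 genes, where the dashed line marks equality. Slc11a1 and Slc11a2, for which the interaction passed, lie below the line, and Slc40a1 lies above it.

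The rest of the iron and heme system was followed in a list of 51 genes in 6 sets, of which 40 could be tested and 11 were too low, reaching at most 1.76 CPM. Of the 40, 10 rose and 10 fell with LP PIC, 11 rose and 8 fell with LP 3M, and 12 rose and 14 fell with LP 3M PIC. These 20, 19 and 26 called genes of 40 stand beside shares of 45.5%, 39.5% and 62.2% over all tested genes. With the mouse as a block, 25, 25 and 29 of the 40 passed, where 51.1%, 45.8% and 65.6% of all tested genes did. The list was chosen with earlier results of these data known, and the difference in shares was not tested. The counts are therefore not read as setting the list apart. The median changes of the 40 genes were 0.03, 0.10 and -0.03 on the log2 scale, beside medians within 0.02 of 0 over all tested genes.

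Of 3 iron sensing genes, none passed with LP PIC, 1 rose with LP 3M and 2 rose with LP 3M PIC, where 22.7%, 20.0% and 31.7% of all tested genes rose. Ireb2, which encodes an iron regulatory protein, rose with LP 3M PIC by 0.58 ± 0.11 on the log2 scale (adjusted p = 0.000113), and Fbxl5, which targets that protein for degradation, rose with LP 3M by 0.40 ± 0.11 (adjusted p = 0.00567) and with LP 3M PIC by 0.79 ± 0.11 (adjusted p = 2.98e-06). Aco1, the other regulatory protein, differed by 0.03, 0.11 and -0.03 in the 3 comparisons with LP, none of which passed. Fbxl5 was chosen from the list after its values were seen. Ncoa4, the receptor that delivers ferritin to the lysosome, fell with LP 3M PIC by 0.85 ± 0.19 (adjusted p = 0.000821, lower in 4 of 5 mice), with 0.35 ± 0.19 in LP PIC (adjusted p = 0.147) and -0.12 ± 0.19 in LP 3M (adjusted p = 0.642).

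Among 5 uptake genes, Trf, which encodes transferrin itself, fell by 1.62, 1.80 and 3.08 on the log2 scale with PIC, with 3M and with both (adjusted p = 3.37e-09, 6.39e-10 and 9.94e-13), from a mean of 97.4 CPM in LP to 30.7, 25.9 and 10.7. Steap3, the endosomal reductase that prepares iron for DMT1, fell by 0.77, 0.92 and 2.21 (adjusted p = 0.000133, 3.3e-05 and 2.71e-10), so it and Slc11a2, which act in the same step, went opposite ways. The zinc and iron importer Slc39a8 fell by 0.69 with LP PIC (adjusted p = 0.00243) and by 1.68 with LP 3M PIC (adjusted p = 1.27e-07). With LP 3M it differed by -0.34 (adjusted p = 0.116), and with the mouse as a block it passed there (adjusted p = 0.00658, in a range from 0.00658 to 0.274). Its relative Slc39a14 rose by 0.96 with LP 3M and by 1.65 with LP 3M PIC (adjusted p = 0.00417 and 1.2e-05), and differed by 0.08 with LP PIC (adjusted p = 0.807).

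Lcn2, which encodes lipocalin 2, a protein that captures bacterial iron carriers, rose more than any other gene of the list with LP 3M and with the dual formulation. Its mean was 3.92 CPM in LP, 37.7 with PIC, 262 with 3M and 1338 ± 1266 (SD, n = 5) with both, a rise of 3.24 ± 0.81, 6.11 ± 0.91 and 8.47 ± 1.00 on the log2 scale (adjusted p = 0.00327, 4.25e-05 and 7.68e-07). Lcn2 is also made by neutrophils, and of 9 neutrophil markers 8 were in the tables, with a sum of 7.31 to 12.03 CPM in LP, 11.5 to 25.5 with PIC, 29.2 to 138 with 3M and 26.3 to 639 with both. Most of that sum was S100a8 and Mmp8, while Retnlg was at 0 in every library and Elane and Mpo reached at most 7 counts in a library. Camp had a mean of 0.0357 CPM in LP, 0.431 with PIC, 0.879 with 3M and 1.42 with both. S100a9 and Ngp had their highest means with PIC, at 0.295 and 0.417 CPM. The part of neutrophils in the Lcn2 values was not tested.

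In the export set, Cp, which encodes ceruloplasmin, the oxidase that works with ferroportin, rose by 2.33, 5.55 and 6.62 on the log2 scale (adjusted p = 0.0241, 1.42e-05 and 4.69e-07) from 0.449 CPM in LP to 2.31, 20.9 and 43.6. Its call with LP PIC was lost in 4 of 16 alternatives, with an adjusted p from 0.00103 to 0.457, the last under limma-voom. Hfe, the hemochromatosis gene, fell by 0.32, 0.82 and 1.18 (adjusted p = 0.0432, 4.28e-05 and 1.57e-07), the first of which was lost in 6 of 16 alternatives, with an adjusted p from 0.00438 to 0.219, the last without mouse 3.

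Of 14 genes for heme uptake, transport, breakdown and its control, 3 rose and 6 fell with LP PIC, 5 rose and 4 fell with LP 3M, and 5 rose and 5 fell with LP 3M PIC. Over all tested genes, 22.7% rose and 22.7% fell with LP PIC, 20.0% and 19.5% with LP 3M, and 31.7% and 30.6% with LP 3M PIC. With 14 genes these counts are not read further. Hp, which encodes the hemoglobin-binding protein haptoglobin, rose by 4.12, 5.08 and 5.45 (adjusted p = 1.07e-05, 2.31e-06 and 2.18e-07), and Spic, a transcription factor of iron-recycling macrophages, by 3.85, 3.35 and 6.01 (adjusted p = 2.94e-08, 3.87e-07 and 8.63e-11). Slc48a1, which moves heme out of the phagolysosome, rose by 0.65, 0.82 and 0.85 (adjusted p = 0.000148, 1.96e-05 and 3.42e-06). Lrp1, the receptor for hemopexin-bound heme, fell by 1.48, 0.72 and 2.14 (adjusted p = 9.05e-07, 0.00198 and 4.22e-09). Bach1, which encodes a heme-sensing repressor of Hmox1 and the ferritin genes, fell by 0.74, 0.33 and 1.17 (adjusted p = 2.7e-05, 0.0232 and 4.9e-08), and the LP 3M call was lost in 3 of 16 alternatives, with an adjusted p from 0.00273 to 0.101, the last without mouse 2. Blvrb, which encodes a biliverdin reductase, fell with LP PIC by 0.45 (adjusted p = 0.000978) and rose with LP 3M by 0.64 (adjusted p = 5.69e-05) and with LP 3M PIC by 0.40 (adjusted p = 0.0016).

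Fth1, Ftl1, Slc40a1 and Hmox1 are known targets of NRF2, the factor of the oxidative stress response, so 8 other NRF2 targets were counted: 2 rose and 3 fell with LP PIC, 5 rose and none fell with LP 3M, and 5 rose and 1 fell with LP 3M PIC. Over all tested genes, 22.7% rose and 22.7% fell with LP PIC, 20.0% and 19.5% with LP 3M, and 31.7% and 30.6% with LP 3M PIC, and with 8 genes the counts of these targets are not read further. Nfe2l2, which encodes NRF2, differed by 0.29, 0.31 and 0.20 (adjusted p = 0.0745, 0.0615 and 0.183), and passed with LP PIC and LP 3M with the mouse as a block (adjusted p = 0.0185 and 0.0201, with alternatives of up to 0.234 and 0.264).

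In the set for heme synthesis and mitochondrial iron, 4 of 13 rose and none fell with LP PIC, 2 rose and 1 fell with LP 3M, and 2 rose and 4 fell with LP 3M PIC. The shares of all tested genes that rose and fell were 22.7% and 22.7%, 20.0% and 19.5%, and 31.7% and 30.6% in that order. With 13 genes these counts are not read further. Slc25a37, which encodes mitoferrin, the carrier of iron into mitochondria, rose by 2.11, 1.08 and 2.06 on the log2 scale (adjusted p = 1.27e-08, 4.54e-05 and 6.07e-09), from 52.3 CPM in LP to 219.7, 103 and 203. Over the whole list, the interaction passed for 6 of 40 genes, all negative, where 8.43% of all tested genes passed and 4.62% were negative.

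**Figure D5:**
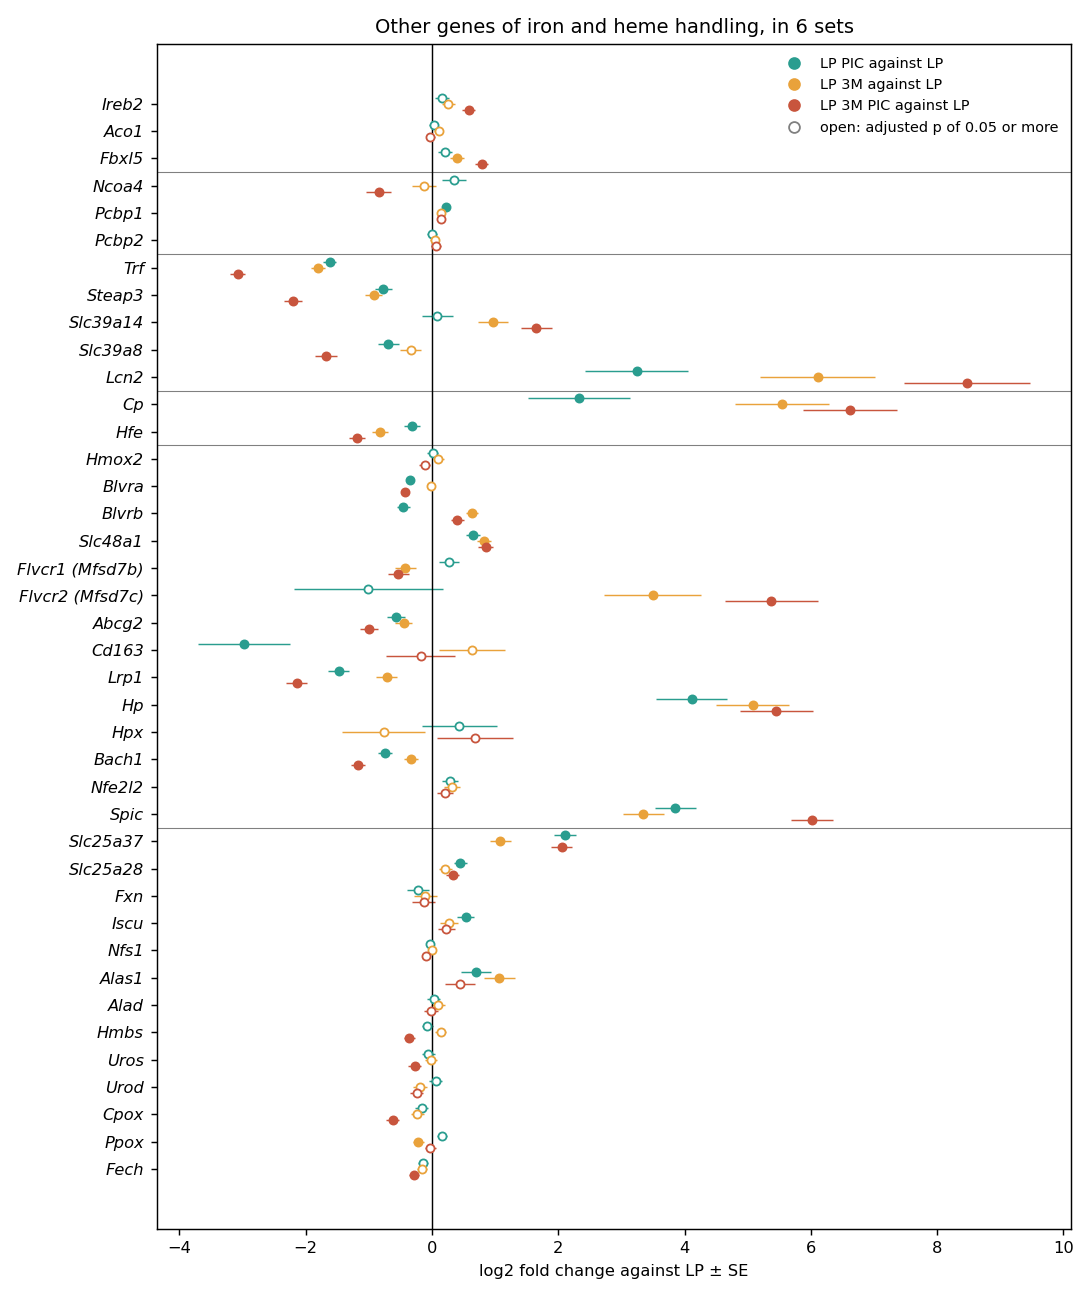
Change against LP (log2 fold change with its standard error) of the 40 tested genes of the iron and heme list, in 6 sets parted by lines, for each adjuvant formulation, with filled points where the adjusted p is under 0.05. Lcn2, Cp, Hp and Spic lie far to the right in all 3, and Trf, Steap3 and Lrp1 to the left.

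The genes whose log2 levels ran most like each member's over the 20 libraries were sought among 9311 genes by Pearson's r, as a description, since the points share mice, conditions and depth. For Fth1 they were Creld2 (r = 0.937), Fam214b (0.936) and the zinc transporter Slc39a7 (0.926), and for Ftl1 Cbr3 (0.908), Bri3bp (0.902) and Rilpl1 (0.892). For Tfrc they were Dip2c (0.912), Mapre1 (0.897) and Tm9sf3 (0.895), and for Slc40a1 Vps37b (0.895), Tspyl1 (0.876) and Ganc (0.867). For Slc11a1 they were Gpd2 (0.980), Sod2, the mitochondrial superoxide dismutase (0.967), and Tnf, the inflammatory cytokine (0.967). For Slc11a2 they were Ppfibp2 (0.950), Pcx (0.934) and Rassf4 (0.934), and for Hmox1 Mfap3l (0.956), Ggta1 (0.947) and Mfsd1 (0.941).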

How the data were processed

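Whole-number read counts for each gene were deposited, 1 table per library. Per the submitters' processing notes, the build was GRCm38 and the tools were HTSeq 0.13.5, STAR 2.7.11b, DESeq2 1.44.0 and FastQC 0.11.1. Neither annotation nor strand setting is given in the sources used here. Per the labels' protocols, libraries were stranded and poly(A)-enriched. The rows for reads on no feature (5.94 to 8.58% of all entries) and ambiguous reads (1.14 to 1.90%) were left out. Counts were tested with edgeR 4.0.16 (R 4.3.3): filterByExpr (minimum count 10, total 15), TMM factors, 1 mean per condition over 20 libraries, robust quasi-likelihood test, Benjamini-Hochberg over 12132 genes. The common biological coefficient of variation was 0.194. An SE is the absolute log2 change over the root of its F value. CPM uses plain totals and the tests use TMM; plain totals shift the median change of all genes by -0.04, -0.11 and -0.11 for PIC, 3M and both against LP. The code of the main test was tried on simulated counts with no mouse effect, which does not cover the pairing.

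Groups came from the treatment label, and replicates are 5 mice. The main test has no term for the mouse, so its SE and adjusted p do not use the pairing. Residuals of the 30 pairs of libraries from the same mouse correlated at 0.139 to 0.522 (median 0.374). For 120 pairs from different mice the median was -0.147 and the highest 0.342, so the ranges overlap. Residuals were centred within each condition, so a negative median for different mice is not separate evidence. The pairing is read from the mouse identifiers in the labels. The 16 alternatives were the mouse as a block, RLE factors, plain totals, totals without Fth1 and Ftl1, no filter, DESeq2 1.42.0, limma-voom (limma 3.58.1), only the 2 conditions compared, each mouse left out, and 3 single libraries left out, the last 3 chosen after seeing the data. Pathway genes were named by rule: the 4 largest rises and falls among called genes that reached 5 CPM on average in the higher group, with 1 direction in all mice, beside a listed group always described, such as Ireb2, Ncoa4 and Nfe2l2. The members and lists were chosen with earlier results of these data known. Per length values use 1 transcript per gene of GENCODE M21, which held 95.7% of the symbols.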

Additional observations from a re-analysis of the deposited data

Results flagged for a closer look

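The effect of adding PIC was compared with and without 3M present, as the interaction on the log2 scale (edgeR's quasi-likelihood test over 20 libraries). Among the members and the pathway genes named by rule or always described, it passed for 6. Alas1, described below, was not in that group. Over all tested genes, 8.43% passed and 4.62% were negative. Many of the pathway genes were named for large changes in these data, so the 6 are not read against that share. All 6 had a lower log2 change under the dual formulation than the sum of the single log2 changes. Among the transporters, Slc11a2 gave -0.82 (adjusted p = 0.000105) and Slc11a1 -0.47 (adjusted p = 0.00758). Haptoglobin, Hp, gave -3.74 ± 0.71 (adjusted p = 0.00421), after rises of 4.12 with PIC, 5.08 with 3M and 5.45 with both, and mitoferrin, Slc25a37, gave -1.13 ± 0.23 (adjusted p = 0.0058). The ferritin receptor Ncoa4 gave -1.07 ± 0.27 (adjusted p = 0.0198) and the heme transporter Slc48a1 -0.62 ± 0.16 (adjusted p = 0.0230). The interaction was negative in 5 of 5 mice for each. The call held in 15 of 15 alternatives for Slc11a2, Hp and Slc25a37, in 13 for Slc11a1, and in 11 for Ncoa4 and Slc48a1, for which the highest adjusted p was 0.0889 without mouse 4 and 0.106 without mouse 1. In none of the 40 values checked did 1 library stand apart from the other 4 of its condition, by a gap over 0.71 of their range. That rule can miss 2 libraries that are extreme together. Mice 1 and 2 were such a pair for Tfrc counts per Slc40a1 count in LP 3M, at 16.6 and 32.1, with the others at 2.32, 3.86 and 4.49.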

How the results depend on the processing

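The mouse block uses the pairing of libraries by mouse. Between LP 3M PIC and LP 3M it raised the members called from 3 to 6. The share of all tested genes called there went from 41.5% to 47.9%. It raised the iron pathway genes with an interaction from 6 to 11, while the share of all tested genes went from 8.43% to 13.6%. No other count of calls among the members or the iron pathway genes moved by over 1.5 times. Blocked values that changed a member's call are given with the results, and the block ended no member's call. With 1 mouse left out, the members called between LP 3M and LP PIC numbered 3 to 6 (3 without mouse 1), those with an interaction 1 to 2 (1 without mouse 1 or mouse 4), and the pathway genes with an interaction 2 to 8 (2 without mouse 1, 2, 3 or 4). Values changed sign only where no call was made. With 1 mouse left out, Fth1 between LP 3M PIC and LP 3M ran from -0.00449 (without mouse 4) to 0.0863, Ftl1 with LP 3M from -0.0724 to 0.0134 (without mouse 2), Aco1 with LP PIC from -0.0169 (without mouse 5) to 0.0723, Aco1 with LP 3M PIC from -0.0976 to 0.0389 (without mouse 2, and 0.0306 without mouse 1) and Ncoa4 with LP 3M from -0.32 to 0.000155 (without mouse 1). With 1 library left out, Fth1 in the first of these was -0.0187 (without LP 3M of mouse 5), and without LP of mouse 2 Ftl1 with LP 3M was 0.00707, the Tfrc interaction -0.0110 (0.54 without mouse 2) and Aco1 with LP 3M PIC 0.00215. With plain totals Aco1 was -0.0163 with LP PIC and -0.00379 with LP 3M. The causes were not tested. Of the members' changes under the alternatives, 736 kept direction and side of the threshold, 15 newly passed, 21 no longer passed and 5 changed sign. Every member was detected in every library, with a lowest count of 145. The part of depth in their changes was not tested. Without the block the SE was 0.43 for Tfrc with LP 3M and 0.41 for Slc40a1 with LP PIC, and with it 0.19 and 0.27, where only the second passed (adjusted p = 0.0574 and 0.0114).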

Other observations

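The genes of this paragraph were chosen from the iron and heme list after their values were seen. Alas1, the first enzyme of heme synthesis, rose with either adjuvant alone, by 0.69 ± 0.24 with LP PIC and 1.07 ± 0.24 with LP 3M on the log2 scale (edgeR, adjusted p = 0.0248 and 0.00191), and its difference from LP was 0.44 ± 0.24 with LP 3M PIC (adjusted p = 0.118). Its interaction was -1.32 ± 0.34 (adjusted p = 0.0226). The heme transporter gene Flvcr2, listed as Mfsd7c, was near the limit of counting in LP, at 0.1102 ± 0.0974 CPM (SD, n = 5), and with PIC, at 0.0436 ± 0.0536. It rose to 1.11 ± 0.695 CPM with 3M and 4.05 ± 2.24 with both (adjusted p = 0.00138 and 3.82e-06), and the lowest of the dual libraries was that of mouse 5 at 0.683 CPM. Hamp, which encodes hepcidin, the hormone that removes ferroportin from the cell surface, was too low to be tested. It had 0, 0, 0, 1 and 1 counts in LP, 1, 3, 0, 0 and 2 with PIC, 0, 1, 0, 1 and 0 with 3M, and 38, 26, 3, 26 and 10 with both, so the libraries with over 3 counts were all of the dual formulation. The receptor for haptoglobin-bound hemoglobin, Cd163, was near absent in every condition, at 0.476 ± 0.209 CPM in LP and 0.0601 ± 0.0721 with PIC, and it fell with LP PIC (adjusted p = 0.00256).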
